A study of Mus musculus with 16 samples.

Results

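Proenkephalin (Penk, ENSMUSG00000045573) was followed in 16 immortalised mouse embryonic fibroblast (MEF) lines. It is 1 gene of the 54453 in the expression table and 1 of the 15285 protein-coding genes with an average above 0 that entered the comparison between lines. The gene was picked because it had the largest difference towards MEF-1 among autosomal genes, so that the difference between the lines of MEF-1 and MEF-2 describes the choice and was not tested.

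The study asked how faithfully DNA methylation is passed on when single cells grow into lines, and sequenced the total RNA of the same lines. Its parental lines, MEF-1 and MEF-2, came from sibling C57BL/6J embryos of embryonic day 13.5 and were made immortal by passaging through crisis, with no transgene or treatment. From each parental line, 7 clonal lines were grown from sorted single cells, and each line has 1 library. The 7 clonal lines of a set are therefore the replicates of their parental line, while a parental line has no replicate. The study typed MEF-1 as male and MEF-2 as female, and it reported aneuploid chromosomes in at least 1 of the lines. MEF-1 and MEF-2 thus differ in embryo, in sex with its Y-linked transcripts and in their passage through crisis. From read coverage, the study proposed that they also differ in the number of some chromosomes. These differences cannot be told apart. Values are rlog values, the log2 of the size-scaled count of a gene in a line, drawn towards the average of that gene over all lines. The number of reads is not known from these values.

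Penk encodes a precursor protein that enters the secretory pathway and is cut at pairs of basic residues into short opioid peptides, mainly Met-enkephalin and Leu-enkephalin. These bind the delta and mu opioid receptors on nearby cells and are soon broken down by peptidases on the cell surface. The gene is best known from striatal neurons and adrenal chromaffin cells, where signals through cyclic AMP (cAMP) raise its transcription, and it is also transcribed in mesenchymal cells of the embryo.

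In the mm10 annotation Penk lies on chromosome 4, on the minus strand, from 4133531 to 4138819, and has 2 transcripts. Penk-201 has 2 exons, the first from 4138006 to 4138477 and the second from 4133531 to 4134507, and the second holds all of the enkephalin runs. Its coding sequence of 268 codons holds 6 copies of the run for Met-enkephalin and 1 of the run for Leu-enkephalin. As annotated, Penk-202 ends at 4134112 and so holds only copies 1 to 3. In the sequences below, taken from the GENCODE transcript and read 5′ to 3′, capitals mark the 15 bases for the pentapeptide and lower case the 2 codons on either side.
Met-enkephalin, copy 1, from codon 100, chr4:4134328-4134354: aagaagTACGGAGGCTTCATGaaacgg
Met-enkephalin, copy 2, from codon 107, chr4:4134307-4134333: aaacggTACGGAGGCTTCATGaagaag
Met-enkephalin, copy 3, from codon 136, chr4:4134220-4134246: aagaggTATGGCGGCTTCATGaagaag
Met-enkephalin, copy 4, from codon 187, chr4:4134067-4134093: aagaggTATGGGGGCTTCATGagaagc
Met-enkephalin, copy 5, from codon 211, chr4:4133995-4134021: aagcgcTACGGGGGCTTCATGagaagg
Leu-enkephalin, copy 6, from codon 231, chr4:4133935-4133961: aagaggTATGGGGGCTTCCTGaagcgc
Met-enkephalin, copy 7, from codon 262, chr4:4133842-4133868: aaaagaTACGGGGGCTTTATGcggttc

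The 7 runs use 6 different sets of 15 bases. A pair of codons for basic amino acids stands before all 7 runs and after 5 of them, whereas copies 4 and 7 are followed by 1 basic codon only. The table gives 1 value for the whole gene, so nothing is known here about single peptides.

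Penk was higher in every MEF-1 line than in every MEF-2 line. In the MEF-1 clonal lines 1 to 7, the rlog value was 17.06, 17.14, 16.30, 17.16, 16.10, 16.09 and 15.54, with a mean of 16.48 ± 0.64 (SD, n = 7). The clonal lines 1 to 7 of MEF-2 had 10.01, 9.85, 11.46, 9.88, 9.94, 10.32 and 9.91, with a mean of 10.19 ± 0.58 (SD, n = 7). Lines 1, 2 and 4 were the high lines of MEF-1 and lie close together, and line 7 was its lowest. In MEF-2, 6 lines lay within a narrow band (9.98 ± 0.17, SD) and line 3 stood 1.15 above the nearest of them. The sets differed by 6.29 (SE 0.30) and were 4.08 apart between the lowest MEF-1 and the highest MEF-2 clonal line.

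The parental lines, which the choice of the gene did not use, stood at 15.02 in MEF-1 and 10.65 in MEF-2, a difference of 4.36. All 7 clonal lines of MEF-1 exceeded their parental line, the lowest of them by 0.52, which is less than the SD of the set. Their mean was 1.47 above the parental value (SE 0.59). In MEF-2, 6 of 7 clonal lines were below the parental line and line 3 was above it, and the mean was lower by 0.46 (−0.46, SE 0.59). The order of the groups was thus MEF-1 clonal, MEF-1 parental, MEF-2 parental and MEF-2 clonal lines. The MEF-2 parental value fell within the range of its clonal lines, whereas the lowest value of any MEF-1 line, 15.02, was well above the highest of any MEF-2 line, 11.46. As the libraries are from bulk RNA, more cells with Penk and more Penk per cell cannot be told apart.

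**Figure D1:**
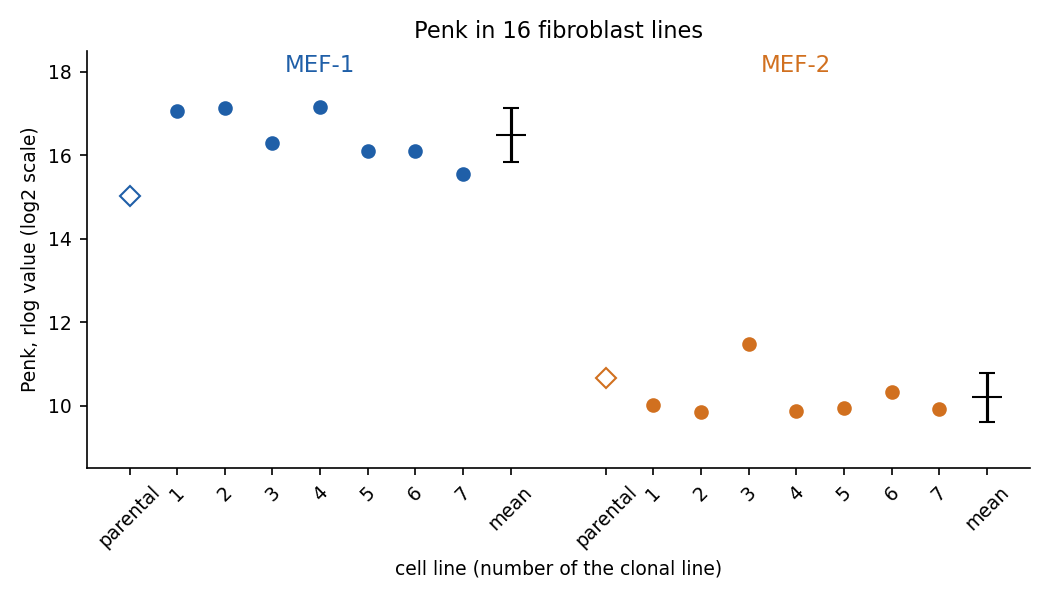
Penk in each of the 16 lines, as the rlog value on a log2 scale. Open diamonds are the parental lines, filled points the clonal lines by number, and black bars the mean and SD of 7 clonal lines. All MEF-1 lines lie between 15.02 and 17.16 and all MEF-2 lines between 9.85 and 11.46, with MEF-2 line 3 the highest of its set.

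Relative to other genes, Penk was among the most abundant transcripts of MEF-1. Per length, that is after subtraction of the log2 of the exonic length in kb, its rank among 15285 genes was between 17 and 93 in the clonal lines of MEF-1 and 126 in their parental line. In the MEF-2 lines it ranked between 2100, in line 3, and 5910, in line 2, and 3820 in the parental line. The transformation draws low values of a gene upwards where its average is high, and the MEF-2 ranks rest on such values.

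The size of the rlog difference cannot be read as a ratio of transcripts. The Y-linked genes Ddx3y, Kdm5d, Eif2s3y and Uty differed between the sets by 5.61 to 6.21, near the 6.29 of Penk, although their MEF-2 values followed the level that genes with hardly any reads share in a line (Pearson's r of 0.999 or higher over 8 lines). These 4 genes still stood at 4.48 to 5.68 in the MEF-2 lines. Penk had a range of 1.62 over the 8 MEF-2 lines against 0.16 or less for the 4 Y-linked genes, and r of 0.44 and Spearman's rho of 0.05 with that level. Without line 3, the range over 7 lines was 0.81, r −0.23 and rho −0.43.

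Within MEF-1, Penk varied between clonal lines more than most genes of its level. Its SD there exceeded that of 97.5% of the 362 genes with a MEF-1 mean of 15 or higher, whose median SD was 0.17. In the MEF-2 clonal lines, its SD exceeded that of 95.6% of the 3344 genes with a MEF-2 mean between 9 and 11 (median SD 0.14), but this rank rests on line 3. Without line 3 the SD of Penk was 0.17, above that of 69.1% of the same genes (median SD 0.12). The mean absolute deviation from the set median was 0.52 in MEF-1 and 0.31 in MEF-2, and the difference of 0.21 did not pass an exact permutation test (two-sided p = 0.431, 3432 arrangements of 7 and 7 lines). This test rests on line 3 as well, since without it the difference was 0.41 (exact permutation p = 0.0373). Line 3 is the MEF-2 line farthest from its set, so leaving it out lowers the MEF-2 spread in any case. No conclusion is drawn from that p.

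The remainder of chromosome 4 did not move with Penk by a comparable amount. The median of 772 other genes of the chromosome, each set against its mean over clonal lines and against all autosomal genes, lay between −0.01 and 0.06 in the MEF-1 clonal lines and between −0.05 and −0.01 in the MEF-2 clonal lines. Subtraction of this level left a Penk difference of 6.24.

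A non-coding gene on the opposite strand, A830012C17Rik (ENSMUSG00000085996), overlaps the start of Penk and was named after its values had been seen. It runs on the plus strand from 4138321 to 4188703, and its first exon, from 4138321 to 4138710, overlaps the first exons of both Penk transcripts. In the MEF-1 clonal lines 1 to 7, A830012C17Rik was at 6.56, 6.37, 5.49, 6.93, 6.18, 5.27 and 5.61, and the mean was 6.06 ± 0.61 (SD, n = 7). The clonal lines 1 to 7 of MEF-2 had 2.71, 2.72, 3.11, 2.70, 2.59, 2.60 and 2.83, with a mean of 2.75 ± 0.18. The sets did not overlap, and the parental lines, at 5.13 and 2.68, stood in the same order. Lines 1, 2 and 4 of MEF-1 and line 3 of MEF-2, the high lines for Penk, were also the high lines for A830012C17Rik. Over 7 lines the Pearson r with Penk was 0.80 in MEF-1 (rho 0.79) and 0.79 in MEF-2 (rho 0.07), and in MEF-2 it turned to −0.55 without line 3. The A830012C17Rik values of MEF-2 clonal lines 1, 2, 4, 5 and 6 followed the level that genes with hardly any reads share. They ran from 2.59 in line 5 to 2.72 in line 2, in the order of that level, and the MEF-2 parental value fell in the same order. The MEF-2 mean, rho and r without line 3 thus rest largely on values that may stand for hardly any reads. The library kit keeps the strand, but the sources used here do not state whether the counting used it, so that reads of the overlap may have been given to either gene.

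The protein-coding genes around Penk did not share its difference. Of 13 that start within 1 Mb of the start of Penk, 9 were tested, and of these 2 were higher in MEF-1, 4 were higher in MEF-2 and 3 did not pass (limma, Benjamini-Hochberg adjusted p over all genes). Over all 15285 genes, 28.6% were higher in MEF-1 and 27.5% higher in MEF-2 by the same rule, 56.1% in all. The other 4, Sdr16c5, Sdr16c6, Vmn1r2 and Vmn1r3, were at 0 in every line. The median difference of the 9 was −0.13, against 0.0043 over all genes tested.

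Lyn, a Src family kinase that starts 461 kb away, was higher in MEF-2 by 0.92 (10.01 ± 0.24 in MEF-1 and 10.93 ± 0.29 in MEF-2, adjusted p = 3.97e-05 by limma). Plag1, a zinc finger factor of growth, was also higher in MEF-2 (11.16 against 10.64, adjusted p = 0.0102), as were Tgs1 (11.74 against 11.53, adjusted p = 0.0054) and Rps20 (15.89 against 15.71, adjusted p = 0.02). The Rps20 call was lost under quantile normalization (adjusted p = 0.0777) and with clone number as a block (adjusted p = 0.0702). Impad1, a Golgi phosphatase, was higher in MEF-1 by 0.28 (adjusted p = 0.000386), and Chchd7 by 0.34 (adjusted p = 0.00206). The largest of these differences is a small part of that of Penk or A830012C17Rik.

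**Figure D2:**
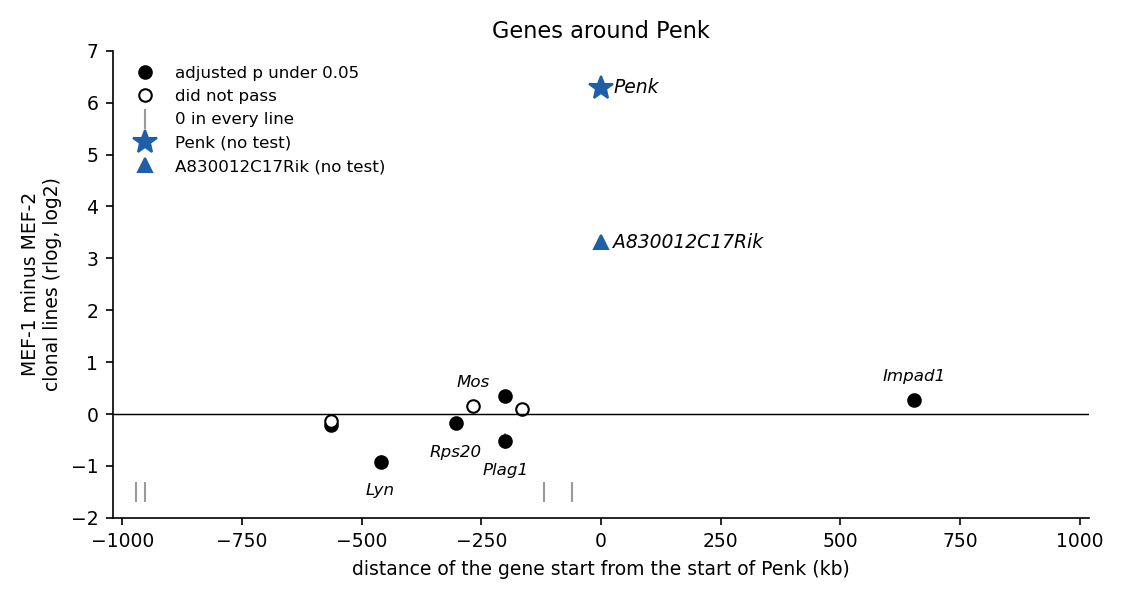
Mean of the MEF-1 minus mean of the MEF-2 clonal lines (rlog, log2) against the distance of each gene start from the start of Penk in kb. Circles are the 9 tested neighbours with SE bars that are mostly smaller than the symbols, grey ticks the 4 at 0 in every line, and the star and triangle are Penk and A830012C17Rik. The 9 neighbours lie between −0.92 and 0.34, whereas Penk is at 6.29 and A830012C17Rik at 3.31.

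Most of the fibroblast markers were high in all lines, apart from Thy1, Dcn and Lum. The 12 fibroblast markers averaged 15.20 to 15.83 in the 8 MEF-1 lines and 14.72 to 15.41 in the 8 MEF-2 lines, and Col1a1 never fell below 20.31. Of the 12, 4 (33.3%) were higher in MEF-1 and 1, Thy1, in MEF-2 (8.3%), beside 28.6% and 27.5% of all genes. Among the 12, the matrix proteoglycans Dcn and Lum were higher in MEF-1 by 4.74 and 3.68. Thy1 was low in the clonal lines of MEF-1 (2.72 to 3.43). The part of such differences in that of Penk was not tested.

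Markers of the cell types best known for Penk were mostly low, apart from 3 neuronal ones. The 8 chromaffin markers averaged 0.85 to 1.04 in the MEF-1 lines and 0.71 to 1.04 in the MEF-2 lines. The defining enzyme Pnmt was at 0 in every line, and Th did not exceed 0.39. The 3 members with an average above 0 were Ddc (4.18 to 5.77 over all lines), Chgb (2.88 to 4.03) and Slc18a1 (2.80 to 3.91). Of the 10 neuronal markers, Snap25 was at 0 in every line, and the mean level was 3.32 to 3.69 in the MEF-1 lines and 3.80 to 4.57 in the MEF-2 lines, the set with less Penk. Tubb3 lay between 9.48 and 12.96, Map2 between 11.13 and 12.81 and Stmn2 between 5.18 and 13.20 over all lines. These 3 were higher in MEF-2. Elavl3 and Syp, 2 of the 6 tested, were called higher in MEF-1 with levels of at most 1.15 and 5.52. Both calls were lost under quantile normalization. Of the 6, 33.3% were higher in MEF-1 and 50.0% in MEF-2, beside 28.6% and 27.5% of all genes. The glial, skeletal muscle, blood, epithelial and endothelial lists had mean levels of at most 3.29, 1 to 4 tested members each, and 0 to 1 members called in each direction.

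Genes of the enkephalin pathway and of cAMP signalling were described next, in 8 lists with 97 genes besides Penk, of which 88 were tested. Of the 88, 32 were higher in MEF-1 and 10 in MEF-2, or 47.7% called against 56.1% over all genes, and their median difference was 0.33, against 0.0043. In 20 of the 88 (22.7%), the sets of clonal lines did not overlap, and the same lack of overlap held for 25.9% of all genes tested. By direction, 36.4% of the 88 were higher in MEF-1 and 11.4% in MEF-2, beside 28.6% and 27.5% of all genes. Differences of the list shares from those of all genes were not tested.

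Penk was the sole opioid precursor at a high level. Prodynorphin (Pdyn) stood at about −2.28 and pronociceptin (Pnoc) between −1.44 and −1.08 in all lines, below the limit for testing. Pomc, the precursor of ACTH and beta-endorphin, was at 5.64 ± 0.24 in MEF-1 and 4.99 ± 0.24 in MEF-2 and was called higher in MEF-1 (adjusted p = 0.00115, limma), but not under quantile normalization (adjusted p = 0.25).

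The classical receptors of enkephalin were at or near the bottom of the scale. The mu receptor Oprm1 lay between −1.77 and −1.51 and the kappa receptor Oprk1 between −1.60 and −1.49 in all lines. The delta receptor Oprd1 was at 1.92 ± 0.61 in MEF-1 and 1.45 ± 0.25 in MEF-2 (adjusted p = 0.101, limma). The nociceptin receptor Oprl1 was the 1 receptor of 4 tested that was called, where 56.1% of all genes were. It was at 4.70 ± 0.46 in MEF-1 and 3.58 ± 0.31 in MEF-2, with no overlap (adjusted p = 0.000308, limma). Ogfr, a nuclear-envelope protein that binds Met-enkephalin, and Ackr3, an atypical chemokine receptor that takes up opioid peptides, were abundant and did not pass. Ogfr was at 12.55 ± 0.10 and 12.57 ± 0.18, and Ackr3 at 12.20 ± 0.50 and 11.75 ± 0.49 in MEF-1 and MEF-2.

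Of the 14 processing genes tested, 2 were higher in each set and 10 did not pass. The convertases that cut proenkephalin in neuroendocrine cells were low, with Pcsk1 between 0.28 and 1.02 in all lines and Pcsk2 at 5.04 ± 1.10 in MEF-1 and 4.39 ± 0.80 in MEF-2 (adjusted p = 0.257, limma). Furin, the convertase of the constitutive pathway, was at 13.78 ± 0.15 in MEF-1 and 12.99 ± 0.16 in MEF-2 (adjusted p = 8.3e-07, limma). Pcsk6, a convertase of growth factor precursors, was higher in the MEF-1 clonal lines by 2.58 (adjusted p = 2.16e-06, limma), although the MEF-2 parental line, at 10.17, exceeded all of its clonal lines. Cathepsin L (Ctsl), a protease that can also cut the precursor, and the convertase Pcsk4 were higher in MEF-2 by 0.40 and 0.49. Cpe, the carboxypeptidase that trims the basic residues left by the cut, was at 16.64 ± 0.47 and 16.76 ± 0.09 and did not pass (adjusted p = 0.556, limma).

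Among the granule proteins, secretogranin II (Scg2) was at 10.73, 9.32, 7.12, 9.57, 7.40, 5.28 and 7.39 in the MEF-1 clonal lines 1 to 7. It was at 5.56, 3.77, 4.17, 4.58, 4.50, 5.13 and 3.82 in the MEF-2 clonal lines, where a single MEF-2 value exceeded the lowest of MEF-1. The difference of 3.61 passed (SE 0.67, adjusted p = 0.00037, limma). Chromogranin B (Chgb), at 3.52 and 3.08, passed as well, but its call was lost under several alternatives, and Vgf, at 5.39 ± 1.03 and 6.53 ± 1.17, did not pass. Chga and Scg3 were not tested.

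The list for enkephalin degradation holds 9 peptidases, and whether each of them cuts enkephalins was not tested. Of the 9, 5 were higher in MEF-1 and 3 in MEF-2, where 28.6% and 27.5% of all genes were. Neprilysin (Mme) was at 15.45 ± 0.38 in MEF-1 and 14.83 ± 0.54 in MEF-2 (adjusted p = 0.0289, limma), a call that leaving out single lines could remove. Aminopeptidase N (Anpep), at 12.91 ± 0.55 and 13.06 ± 0.56, did not pass. Aminopeptidase A (Enpep) was higher in MEF-1 by 3.65, from 7.33 ± 0.73 to 10.98 ± 0.88. Ace, at a lower level, was higher by 1.62 (6.24 ± 0.73 against 4.61 ± 0.48), the endothelin-converting enzyme Ece1 by 1.35 and Lnpep by 0.40. The parental lines of MEF-1 and MEF-2 were closer, at 8.17 and 7.13 for Enpep and 5.16 and 4.72 for Ace. Lnpep was at 14.50 and 14.20 in them, and Ece1 at 10.99 in both. Thop1, Npepps and Dpp3, which are cytosolic peptidases, were higher in MEF-2 by 0.69, 0.26 and 0.23, and the call of Dpp3 was lost without some single lines.

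Of 21 tested factors that bind the Penk promoter or belong to the same families, 5 were higher in MEF-1, 1 was higher in MEF-2 and 15 did not pass. The shares of 23.8% and 4.8% stand beside 28.6% and 27.5% of all genes. Creb1, the factor that answers cAMP, was at 12.46 ± 0.10 and 12.54 ± 0.06 (adjusted p = 0.202, limma). Fos, Fosb, Jun and Junb differed by 0.43 to 0.65 and did not pass. Nfia, of the nuclear factor I family, had the largest difference called, 14.81 ± 0.26 in MEF-1 and 13.60 ± 0.62 in MEF-2 (adjusted p = 0.000419, limma). Rela was higher in MEF-1 by 0.42 and Atf2 higher in MEF-2 by 0.19.

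The cAMP signalling list had 12 genes (46.2%) higher in MEF-1 and 4 (15.4%) higher in MEF-2 among 26 tested, beside 28.6% and 27.5% of all genes. Of these calls, Adcy3 in MEF-2 and Adcy8 in MEF-1 were lost under other scalings. The adenylyl cyclases Adcy9 and Adcy1 were higher in MEF-1 by 2.38 and 1.93, and Adcy4 was higher in MEF-2 by 0.92. In the parental lines of MEF-1 and MEF-2, Adcy9 was at 9.57 and 8.47, Adcy1 at 9.12 and 8.28 and Adcy4 at 5.77 and 7.45. The phosphodiesterase Pde3b was at 9.93 ± 0.25 in the MEF-1 clonal lines and 5.91 ± 0.16 in the MEF-2 clonal lines (adjusted p = 3.4e-12, limma), and Prkar1b, a regulatory subunit of protein kinase A, at 9.05 ± 0.36 and 5.89 ± 0.29 (adjusted p = 1.91e-09, limma). For both genes the MEF-2 parental line did not resemble its clonal lines, with Pde3b at 9.47 and Prkar1b at 8.66, beside 10.23 and 8.61 in the MEF-1 parental line. For Penk, the parental lines themselves were 4.36 apart.

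Of 10 genes that cAMP induces, 4 (40.0%) were higher in MEF-1, beside 28.6% of all genes, and 6 did not pass. Ppargc1a, a coactivator of mitochondrial genes, was at 9.09 ± 0.77 and 4.69 ± 0.38 (adjusted p = 2.09e-08, limma), and Per1, Dusp1 and Rgs2 differed by 0.51, 0.38 and 0.66. The calls of Dusp1 and Rgs2 were each lost in 8 of 14 fits that left out a line, and that of Rgs2 under quantile normalization (adjusted p = 0.121, limma). The early genes Nr4a1, Nr4a2 and Nr4a3 and the kinase Sik1 did not pass.

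**Figure D3:**
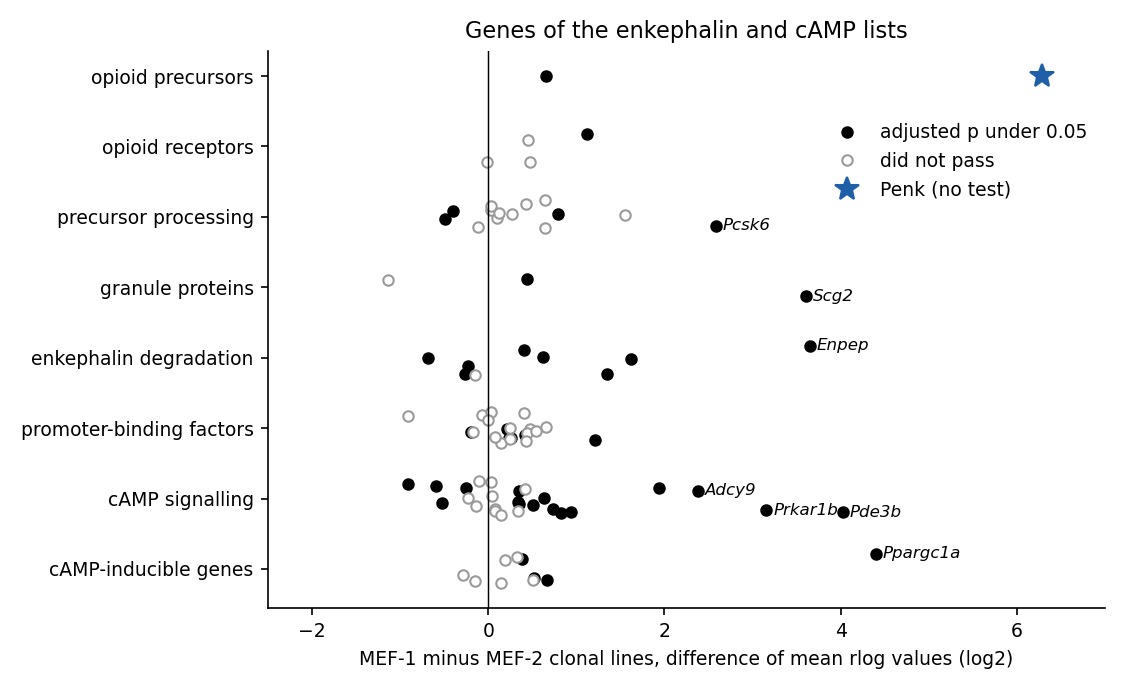
Mean of the MEF-1 minus mean of the MEF-2 clonal lines (rlog, log2) for each tested gene of 8 lists. Black points passed at an adjusted p under 0.05, open points did not, and the star is Penk, which was chosen on this difference. Most of the 88 genes lie near 0, and the genes named, with differences above 2, are all on the MEF-1 side.

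Penk had the largest difference by choice, and the autosomal genes next to it without overlap were Dnah2, Sfrp2, Efemp1, Pygo1 and Wasf3, with differences of 5.97, 5.81, 5.77, 5.74 and 5.48. Sets without overlap and higher in MEF-1 made up 13.6% of all genes tested. Dnah2, an axonemal dynein chain, varied little within either set (SD 0.09 in MEF-1 and 0.13 in MEF-2), and its parental lines differed by 6.12. For the other 4 the parental lines were closer, with differences of 2.00 for Sfrp2, 2.09 for Efemp1, 1.01 for Pygo1 and 1.27 for Wasf3. The MEF-2 parental line had Pygo1 at 9.88 and Wasf3 at 9.65, above all of its clonal lines. Sfrp2, a secreted Wnt antagonist, ranged from 8.75 to 15.60 over the MEF-1 clonal lines, and like Penk it was highest in lines 1, 2 and 4 (r = 0.82, rho = 0.82, 7 lines). Within MEF-2, r between Sfrp2 and Penk was −0.22. Efemp1, Pygo1 and Wasf3 had r between −0.16 and 0.55 with Penk in MEF-1.

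Genes with a pattern like that of Penk were then sought within each set separately, where the difference between the sets plays no part. Pearson's r with Penk was taken over 7 lines for 1835 genes with a range of 1 or more in both sets. It is a description, as the lines of a set share a founder and a single line can decide r. In MEF-1, 233 genes had r of 0.7 or higher and 184 had −0.7 or lower. In MEF-2 the counts were 252 and 184, and 52 genes were at 0.7 or higher in both sets and 29 at −0.7 or lower in both.

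MEF-2 line 3 decides much of the likeness in MEF-2. Without it, 17 of the 52 genes still had r of 0.7 or higher over the 6 remaining lines and 6 fell below 0, and 15 of the 29 opposite genes still had −0.7 or lower. The sign was kept more often than the size. Of the 233 genes high in MEF-1, 167 (71.7%) had r above 0 in MEF-2, where 52.9% of all genes compared did so. Without line 3, it was 165 (70.8%), against 48.6% of all genes compared. Of the 184 low in MEF-1, 135 (73.4%) were below 0 in MEF-2 and 147 (79.9%) without line 3. Among the 52 genes, 32 were called higher in MEF-1 and 1 in MEF-2, where 581 (31.7%) and 392 (21.4%) of the 1835 genes compared were. Of the 52, 0 were on chromosome 4, where 97 genes had been compared.

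**Figure D4:**
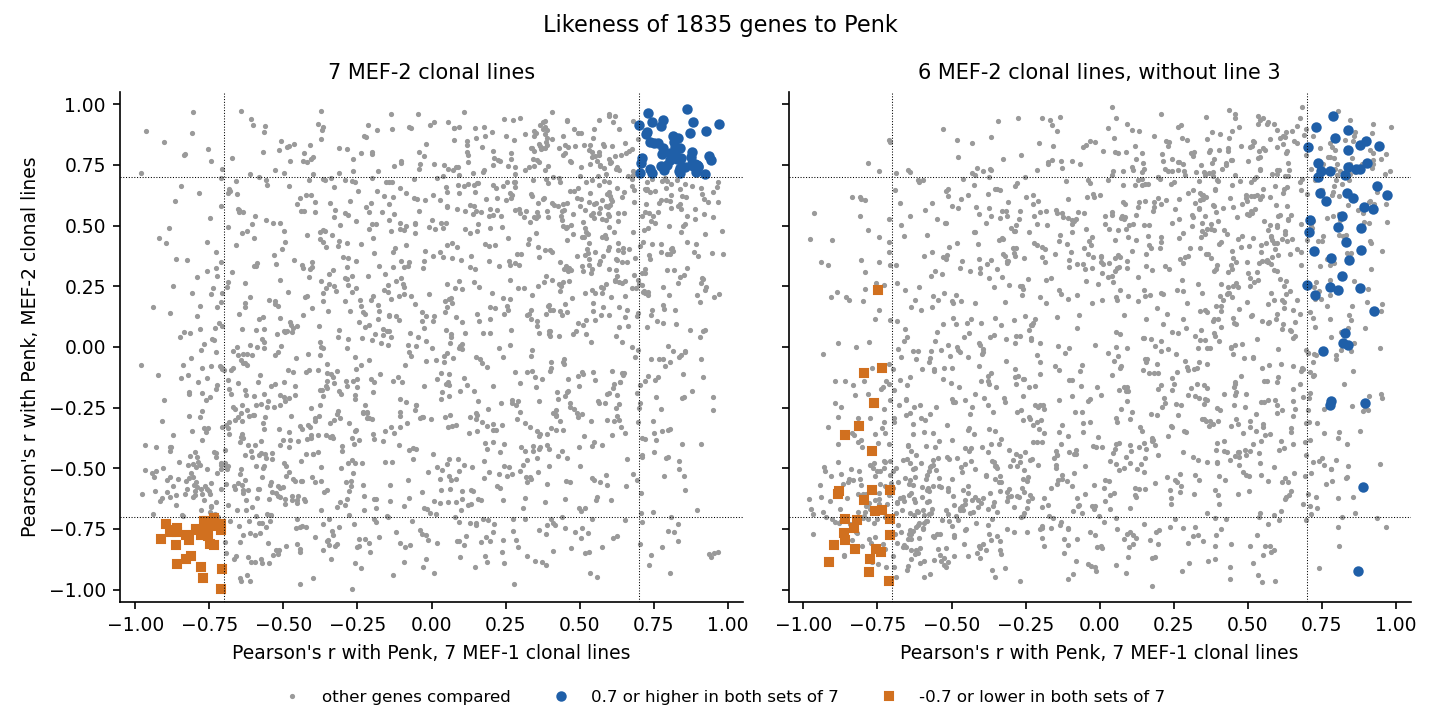
Pearson's r with Penk over 7 MEF-1 clonal lines against r over the MEF-2 clonal lines, with all 7 on the left and without line 3 on the right, for 1835 genes. Blue circles are the 52 genes at 0.7 or higher in both sets of 7 and orange squares the 29 at −0.7 or lower. On the right, 17 of the circles and 15 of the squares remain beyond 0.7 in MEF-2, and 6 circles lie below 0.

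The genes most like Penk in both sets were 6430571L13Rik, Igfals, Ccnb3, Cped1 and Rag1. For 6430571L13Rik, r was 0.97 in MEF-1 and 0.92 in MEF-2 (rho 0.86 and 0.46), and 0.63 in MEF-2 without line 3. Without line 6 as well, r in MEF-2 was −0.37. Igfals, which encodes a carrier of insulin-like growth factors, was at 3.70, 3.27, 2.85, 3.93, 2.87, 2.83 and 2.40 in the MEF-1 clonal lines 1 to 7. In the MEF-2 clonal lines it was at 2.27, 2.28, 3.41, 2.59, 2.28, 2.38 and 1.93. Its high lines were again 1, 2 and 4 of MEF-1 and 3 of MEF-2, with r of 0.93 and 0.89, but 0.15 in MEF-2 without line 3.

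Rag1, a recombinase of lymphocytes, was low in all lines and reached 5.80 in MEF-2 line 3, where the next line was at 3.13. Its r was 0.86 in MEF-1 and 0.98 in MEF-2 (rho 0.79 and 0.82), and 0.73 without line 3. Ccnb3, a cyclin, had r of 0.88 and 0.93, and 0.40 in MEF-2 without line 3. Cped1 is the clearest case of a likeness that 1 line makes. It was at 10.60 in MEF-2 line 3 and between 8.42 and 8.88 in the other 6, and its r of 0.88 in MEF-2 turned to −0.92 without line 3. The next 5 genes were Fam189a2, Nap1l3, Eepd1, Zfp879 and Tspan32, with r of 0.82 to 0.84 in MEF-1 and 0.82 to 0.87 in MEF-2. Without lines 3 and 6, r in MEF-2 lay between −0.77 and 0.68 for these 5. It was 0.61 for Rag1, 0.14 for Cped1, −0.18 for Igfals and −0.65 for Ccnb3.

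The genes most opposite to Penk in both sets were Rbm38, Cnn1, Chd7, Fbln1 and Gna14. Rbm38, an RNA-binding protein, was at 6.47, 6.94, 7.43, 6.90, 7.35, 7.43 and 7.49 in the MEF-1 clonal lines 1 to 7. In the MEF-2 clonal lines it was at 8.37, 9.13, 7.31, 9.11, 8.92, 8.21 and 9.54. Its lowest lines were 1, 2 and 4 of MEF-1 and 3 of MEF-2, with r of −0.86 and −0.89 (rho −0.86 and −0.89) and −0.80 in MEF-2 without line 3, and it was also higher in MEF-2 by 1.51.

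Cnn1, the calponin of smooth muscle cells and contractile fibroblasts, covered 9.08 to 11.32 over the clonal lines of MEF-1 and 12.68 to 14.64 over those of MEF-2. Its r was −0.83 and −0.87, and −0.74 in MEF-2 without line 3, and the difference of 3.52 was towards MEF-2. Chd7, a chromatin remodeller that shares chromosome 4 with Penk, had r of −0.86 and −0.82 and −0.77 without line 3. Gna14, a G protein subunit, had −0.82 and −0.79 and −0.71 without line 3. Fbln1, a matrix protein, had −0.81 and −0.86, but −0.33 without line 3. Without line 6 too, which left 5 lines, r was −0.73 for Rbm38 and −0.98 for Chd7, but −0.61 for Gna14, −0.19 for Cnn1 and 0.08 for Fbln1, and Rag1 was at 0.61.

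**Figure D5:**
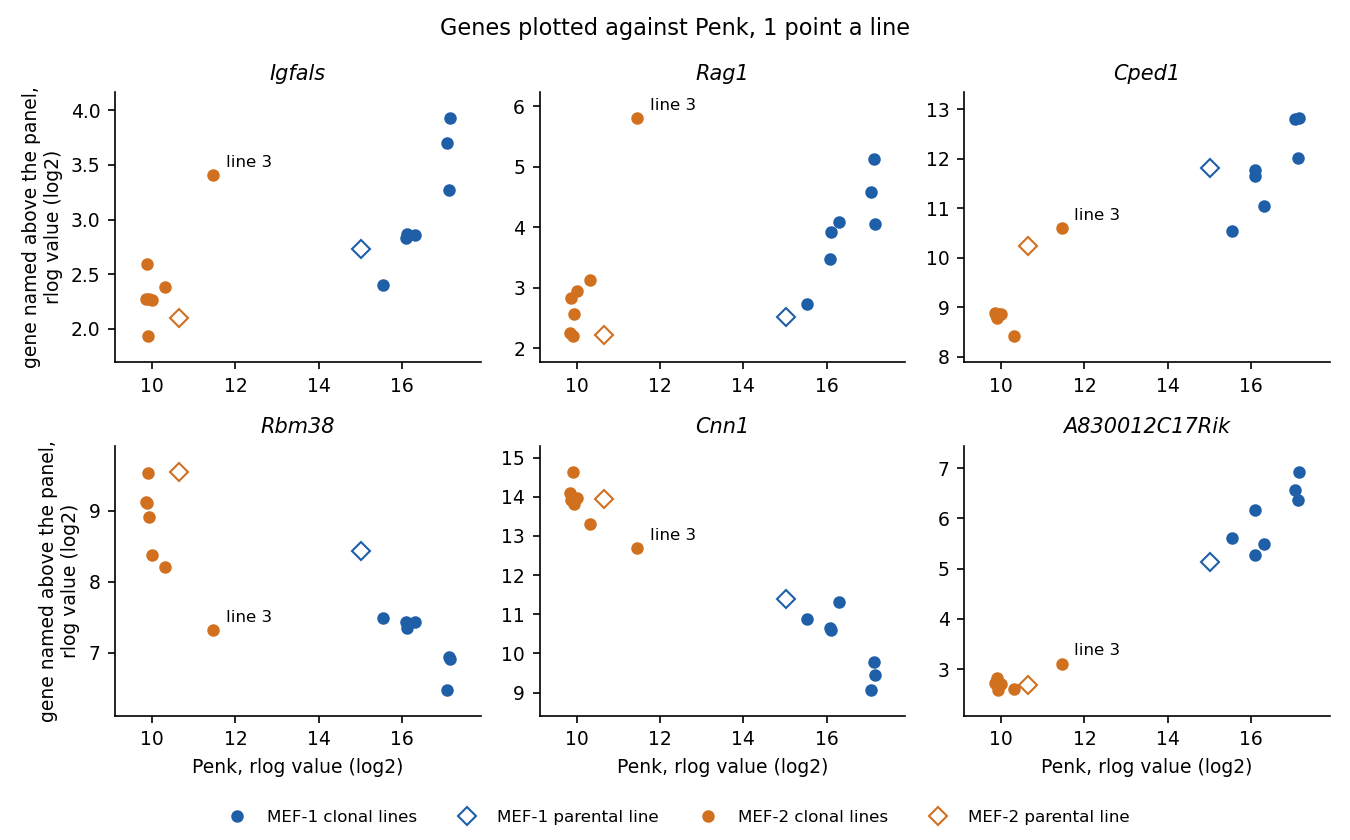
Values of 6 genes (vertical axes) against Penk (horizontal axes), both as rlog on a log2 scale, 1 point a line, with MEF-1 in blue, MEF-2 in orange and parental lines as open diamonds. In MEF-2, line 3 is labelled. Igfals, Rag1, Cped1 and A830012C17Rik rise with Penk within MEF-1 (r of 0.80 to 0.93), and Rbm38 and Cnn1 fall with it in both sets.

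Within MEF-1 alone, the 5 highest values of r belonged to Adamtsl1, Ackr4, 6430571L13Rik, Adra1b and Reck, between 0.97 and 0.98 over 7 lines. Adamtsl1 and Reck, both of which act on the extracellular matrix, are on chromosome 4 as well. Without the 2 lines farthest from the Penk median, r stayed between 0.94 and 0.98 for these 5 genes. Reck was at 14.33, 14.11, 13.55, 14.33, 13.52, 13.63 and 13.23 in the MEF-1 clonal lines 1 to 7, so that lines 1, 2 and 4 were again the highest and line 7 the lowest. In MEF-2, r was 0.38 for Adamtsl1, 0.48 for Ackr4, 0.22 for Adra1b and 0.68 for Reck. Without line 3 it was 0.91, 0.72, 0.51 and 0.59, and without line 6 as well 0.64, 0.28, 0.51 and 0.61.

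Within MEF-2 alone, the 5 highest values belonged to Rag1, Trhr, AW551984, Ciita and Ncam2, between 0.97 and 0.98. All 5 had line 3 far above the other MEF-2 lines. In clonal lines 2, 4, 5 and 7, Trhr (0.84 to 0.87) followed the level that genes with hardly any reads share. Ncam2 did so in lines 2, 4 and 7 (2.12 to 2.18), and Rag1 in lines 2 and 7 and the parental line (2.20 to 2.25). Such values may stand for hardly any reads, so that r in MEF-2 rests on few lines for these genes. In MEF-1, r was 0.86 for Rag1, 0.11 for Ciita, −0.37 for Trhr, −0.64 for AW551984 and −0.80 for Ncam2.

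Likeness to Penk was also counted over the pathway genes, with no test of the shares. Of the 88 tested members of the 8 lists, 6 (6.82%) had r of 0.7 or higher in MEF-1 and 9 (10.2%) in MEF-2, and 0 did so in both, where the shares over all other genes tested were 8.32%, 14.4% and 2.02%. In MEF-1, the phosphodiesterase Pde3a (r = 0.96, rho = 0.86), Prkar1b (0.92 and 0.89) and the carboxypeptidase Cpz (0.91 and 0.86) were the members most like Penk and Vgf the most opposite (−0.94 and −0.86), all named after their values had been seen. In MEF-2, r for the same 4 genes was −0.03, −0.21, 0.26 and −0.53.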

How the data were processed

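Total RNA libraries of 16 lines (2 parental, 14 clonal) were analysed. Per the labels and methods, the authors trimmed reads (Trim Galore 0.6.0), quantified transcripts with Salmon 1.5.2 on mm10 and deposited 1 log2 value per gene and line, from the rlog transformation of DESeq2 1.24.0. How transcripts became genes, and whether rlog was blind, is not given in the sources used here. The depth is unknown, so no counting interval is given.

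Of 54453 genes, 54200 matched GENCODE M21 (mm10) by identifier, and 15285 protein-coding genes with an average above 0 were fitted with limma 3.58.1 (R 4.3.3; trended prior, Benjamini-Hochberg adjusted p under 0.05), 7 MEF-1 against 7 MEF-2 clonal lines. Parental lines were set against their clonal lines in a 4-group fit. The planned p-values of that fit are not printed for Penk, since the clonal means also chose the gene. As Penk was chosen with earlier results of these data known, so were all lists and rules. Named genes are Penk in every line, called, best known or lowest list members, protein-coding genes within 1 Mb, the 5 next by difference, and those most like or opposite to Penk in r. Same-numbered clones are different cells. The limma p-values set a difference of means against the spread between clonal lines. As the clonal lines of a set share 1 parental line, these p-values do not cover other MEF lines. Computations were tested on simulated data and run with Python 3.11.15.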

Additional observations from a re-analysis of the deposited data

Results flagged for a closer look

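Single lines stood apart from the 6 others of their set by Dixon's criterion in 11 of 60 sets examined, which were both sets of 30 genes named above. Chance alone marks about 3 of 60, and genes chosen for their likeness to Penk share its distant line. MEF-2 line 3 accounts for 9 of the 11. In that line, Penk reached 11.46 (nearest 10.32) and Rag1 5.80 (nearest 3.13). Cped1 was at 10.60 (nearest 8.88), AW551984 at 7.42 (1.77), Ciita at 4.25 (2.86) and Ncam2 at 3.94 (2.37). Ccnb3 was at 3.01 (2.28), Trhr at 2.01 (1.18) and Wasf3 at 6.34 (5.90). The chromosome 4 level of that line, −0.01, was the highest of its set, where the other 6 lay between −0.05 and −0.02. Of the other flags, AW551984 was at 3.76 in MEF-1 line 7 (nearest 1.72), and Dnah2 was lowest in MEF-1 line 5, at 11.93 (nearest 12.11).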

How the results depend on the processing

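The Penk difference between clonal lines stayed between 6.18 and 6.50 when each line was left out in turn, and between 6.24 and 6.34 under median centring, quantile normalization and subtraction of the chromosome 4 level. The spread difference of 0.21 ranged from 0.15 to 0.41 without single lines. Only without MEF-2 line 3, the farthest of its set, was p under 0.05 (0.41, exact permutation p = 0.0373), and no conclusion is drawn from it. With the SD in place of the deviation it was 0.06. Parental contrasts ranged from 1.36 to 1.62 in MEF-1 and from −0.67 to −0.40 in MEF-2. Without single lines, 4129 to 4402 genes were called higher in MEF-1 and 3893 to 4271 in MEF-2, and in the opioid and cAMP lists 28 to 37 and 9 to 13. Genes like Penk in both sets numbered 44 to 69 and opposite genes 20 to 40 without single lines. Spearman's rho in place of r gave 53 like and 56 opposite genes, and a range of 0.5 or more gave 147 and 99 of 5797 compared. Of the 42 list members called, 7 (Chgb, Mme, Dpp3, Nr3c1, Adcy3, Dusp1, Rgs2) lost the call without some line and 6 (Pomc, Chgb, Nr3c1, Adcy3, Adcy8, Rgs2) under another scaling, prior or block.

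Clone numbers did not pair the lines. The correlation of deviations between same-numbered clones ran from −0.13 to 0.20, and 1 of 7 MEF-1 lines correlated best with its own number. With clone number as a replicate block, the Penk difference was 6.29 (SE 0.30), 4201 genes were called higher in MEF-1 and 4025 in MEF-2, and 31 and 10 in the lists. The unknown depth limits what can be said of low genes, where a small value may stand for no reads at all.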
